A study of Mus musculus with 34 samples.

Results

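The choroid plexus is the epithelial tissue of the brain ventricles that makes cerebrospinal fluid. In brain RNA from all 34 libraries of the study, 10 genes of this tissue were followed. They were chosen by symbol from a fixed list (Ttr, Enpp2, Kl, Folr1, Clic6, Kcne2, Slc4a5, Igf2, Aqp1 and Otx2), and all 10 were among the 16389 genes of the table and among the 15053 genes that reached an FPKM (fragments per kilobase of gene, scaled to the mapped reads of the library) of 1 in at least 3 libraries. The study compared bone marrow-derived myeloid cells in the brain of male C57BL/6 mice with normal brain. WT CON mice, 4 in number, were neither irradiated nor transplanted nor given PLX3397. The 4 GFP-BM CON mice received 1000 cGy of whole-body irradiation at 4 months of age and whole bone marrow from CAG-EGFP donors, in which GFP is driven by a ubiquitous promoter. Irradiation and transplant were the same in the 4 GFP-BM REPOP mice, which 3.5 months later were also fed chow with 600 ppm of PLX3397, an inhibitor of CSF1R that removes microglia, for 14 days and then recovered for 6 months. Each library came from 1 region of the brain of 1 perfused mouse. The cortex gave 3 libraries for WT CON and 4 for each transplanted group, and the hippocampus 4 per group. The thalamus, dissected with the striatum, gave 3 for GFP-BM CON and 4 for each other group. The thalamus of GFP-BM CON mouse 7 was not analysed here. Replicate numbers did not always mark the same mouse in different regions, so mice are named by their label numbers where regions are compared.

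Choroid plexus epithelium is a single layer of ciliated cells around leaky capillaries, joined by tight junctions, that carries ions, water, vitamins and hormones between blood and cerebrospinal fluid. The tissue hangs in the ventricles, and the plexus of the lateral ventricle lies next to the hippocampus. Its epithelium makes transthyretin in very large amounts, whereas neurons and glia make little or none, and these genes are used as markers of the tissue. In bulk RNA, fewer cells of a type and less RNA per cell cannot be told apart.

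The genes fall into 4 roles, and their coordinates are those of RefSeq on GRCm38.p6, the assembly known as mm10 in the submitters' processing notes. The secreted proteins are Ttr (Entrez 22139, chromosome 18), the carrier of thyroid hormone and of retinol-binding protein, Enpp2 (Entrez 18606, chr15:54838901-54952789), or autotaxin, which makes lysophosphatidic acid and is also made by oligodendrocytes, and Igf2 (Entrez 16002, chr7:142650768-142666816), a growth factor that is also made in the meninges.

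Among the proteins of the cell surface, Kl (Entrez 16591, chr5:150952607-150993817), or klotho, is a co-receptor for FGF23, and Folr1 (Entrez 14275, chr7:101858331-101870788) is the folate receptor that loads folate into cerebrospinal fluid. The channels and transporters are Kcne2 (Entrez 246133, chr16:92292389-92298133), a potassium channel subunit, Clic6 (Entrez 209195, chr16:92498147-92541241), of the chloride intracellular channel family, Slc4a5 (Entrez 232156, chr6:83207580-83304945), a sodium bicarbonate cotransporter, and Aqp1 (Entrez 11826, chr6:55336299-55348555), a water channel. Otx2 (Entrez 18424, chr14:48656781-48667644) is a homeodomain transcription factor that the plexus needs to form and to be maintained. Kcne2 and Clic6 lie on the same chromosome, 200014 bases apart, with 5 protein-coding genes between them.

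RefSeq promoter windows were at hand for 6 of the 10 genes, 13 windows in all. The 250 bases before a transcript start are printed below for the members with a window whose levels stayed closest to those of Ttr (Kcne2, Slc4a5 and Kl), and for the Otx2 window that held the motif searched. The motif was TAATCC, the core letters bound by homeodomain proteins of the Otx type, searched on both strands as TAATCC or GGATTA, and capitals mark it. The Kcne2 and Kl windows end where the gene begins, whereas the Slc4a5 and Otx2 windows lie inside the gene span given above, before an internal transcript start. All sequences run 5′ to 3′ on the strand of the gene.
Kcne2, chr16:92292139-92292388, plus strand: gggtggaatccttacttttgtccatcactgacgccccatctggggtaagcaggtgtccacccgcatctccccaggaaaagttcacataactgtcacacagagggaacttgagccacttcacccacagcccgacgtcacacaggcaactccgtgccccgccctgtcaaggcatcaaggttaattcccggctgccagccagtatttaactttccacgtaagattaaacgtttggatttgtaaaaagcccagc
Slc4a5, chr6:83237125-83237374, plus strand: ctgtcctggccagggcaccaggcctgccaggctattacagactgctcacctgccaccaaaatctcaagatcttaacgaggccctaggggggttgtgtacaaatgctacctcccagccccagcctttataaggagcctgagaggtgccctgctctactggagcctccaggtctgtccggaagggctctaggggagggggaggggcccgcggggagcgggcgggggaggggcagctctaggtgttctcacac
Kl, chr5:150952357-150952606, plus strand: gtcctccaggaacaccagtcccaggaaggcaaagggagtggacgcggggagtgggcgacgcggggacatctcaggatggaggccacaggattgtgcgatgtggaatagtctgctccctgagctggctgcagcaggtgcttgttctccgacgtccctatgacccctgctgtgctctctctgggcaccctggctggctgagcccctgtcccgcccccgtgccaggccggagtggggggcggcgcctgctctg
Otx2, chr14:48665110-48665359, minus strand: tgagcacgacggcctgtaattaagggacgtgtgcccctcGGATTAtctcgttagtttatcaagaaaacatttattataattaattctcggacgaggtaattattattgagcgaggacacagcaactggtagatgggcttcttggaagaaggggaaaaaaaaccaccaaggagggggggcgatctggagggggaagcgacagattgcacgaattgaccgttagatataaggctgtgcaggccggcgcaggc
Of the 13 windows, 1 held the motif, this Otx2 window, where it begins 211 bases before the start. Over 32851 RefSeq windows of the same length, 6.25% held it. A match is a description of letters only, and its absence from the Kcne2, Slc4a5 and Kl windows says no more than that.

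Depth was even, with 17085018 to 26010509 reads per library recovered from the FPKM values. The labels of the regions were checked against marker genes. The summed FPKM of 10 hippocampus markers lay between 33.2 and 64.4 in the cortex libraries, and 9 of 12 hippocampus libraries lay between 109 and 263. The other 3 lay within the range of the cortex: GFP-BM REPOP replicate 1 at 38.9, WT CON replicate 2 at 49.8 and GFP-BM REPOP replicate 4 at 55.0. GFP-BM REPOP replicate 1 also held the highest cortex markers of the hippocampus libraries (summed FPKM 276), and GFP-BM REPOP replicate 4 the highest striatum markers of all 34 (1768). In the thalamus libraries the hippocampus markers summed to 48.3 to 119, so GFP-BM CON hippocampus replicate 4, at 109, lay inside that range. It also held the highest thalamus markers of the hippocampus libraries (127, against 133 to 268 in the thalamus). All libraries keep their labels here. The tests that use the hippocampus and the correlations with Ttr are given with and without the 3 within the range of the cortex.

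Ttr had the highest median level of the 10 genes, 255 FPKM over all libraries, and its level was very uneven within the hippocampus. In the WT CON hippocampus its FPKM was 6324, 17.1, 740 and 70.5 in replicates 1 to 4. In the GFP-BM CON hippocampus it was 41.6, 1086, 4794 and 6196, and in the GFP-BM REPOP hippocampus 73.0, 277, 161 and 250. Both control groups thus held libraries at the top and at the bottom of the range, and the GFP-BM REPOP libraries lay between them, inside the range of both. The highest library, WT CON replicate 1, exceeded the lowest, WT CON replicate 2, by 370-fold, and both came from untreated mice. Replicate 2 is 1 of the 3 libraries with few hippocampus markers.

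In the cortex, Ttr was steady in WT CON mice, at an FPKM of 442, 410 and 399. The GFP-BM CON cortex had 398, 177, 260 and 47.7, and the GFP-BM REPOP cortex 181, 358, 85.1 and 49.8. The 3 WT CON values lay above all 8 others, but the lowest of them (399) only just above GFP-BM CON replicate 1 (398). In the thalamus the values were 96.6, 243, 83.6 and 407 in WT CON, 345, 23.6 and 441 in GFP-BM CON, and 91.4, 388, 127 and 617 in GFP-BM REPOP mice, and the 3 groups overlapped. The medians of the regions were close, at 260 FPKM for cortex, 264 for hippocampus and 243 for thalamus, while the SD of the log2 level was 1.23, 2.91 and 1.42. The regions thus differed in the spread of Ttr more than in its middle, which was not tested.

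**Figure D1:**
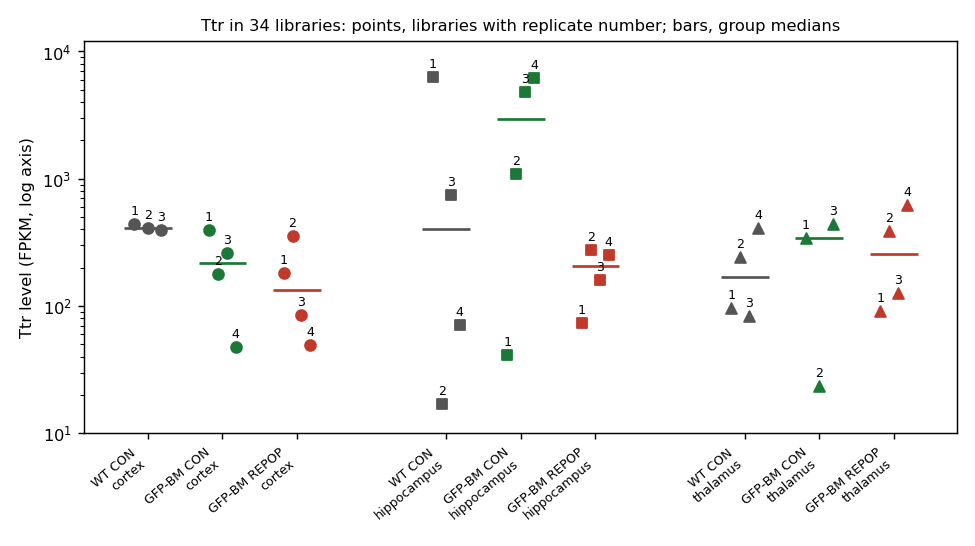
Ttr level (FPKM, log axis) in each of 34 libraries, by region and group, with the replicate number above each point and a bar at the group median. The hippocampus values run from 17.1 to 6324, while the 3 WT CON cortex values lie between 399 and 442.

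The libraries with the highest levels of these genes were all labelled hippocampus. In 5 of 12 hippocampus libraries Ttr was above 500 FPKM, against 1 of 11 thalamus libraries and 0 of 11 cortex libraries. In these 5, WT CON replicates 1 and 3 and GFP-BM CON replicates 2, 3 and 4, all 10 genes exceeded their highest cortex value. In the other 7 hippocampus libraries between 0 and 3 of the 10 did so. For Ttr, at most 442 FPKM in the cortex, the excess in the 5 libraries was fixed by choosing them above 500. The other genes move with Ttr to different degrees, so their counts are not independent of that choice. GFP-BM CON replicate 1 was lowest, with 6 genes below every cortex library. In the thalamus the count was between 1 and 7, the highest in GFP-BM REPOP replicate 4. A list of 23 other choroid plexus genes, which includes the tight junction gene Cldn2, was counted in the same way. In the 5 hippocampus libraries between 15 and 23 of them exceeded every cortex library, and in the other 7 between 1 and 5. Most of these genes also move with Ttr, so their counts are not independent of the choice by Ttr either. The share of all genes above every cortex library was not counted for any library. In the thalamus the count of these genes was between 3 and 15. GFP-BM REPOP replicate 4 had 15, as many as WT CON hippocampus replicate 3.

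The Ttr levels in the regions of one mouse were often far apart. Mouse 9 (GFP-BM CON) had a Ttr FPKM of 6196 in the hippocampus, 47.7 in the cortex and 441 in the thalamus. Mouse 33 (WT CON) had 6324 in the hippocampus and 96.6 in the thalamus. Mouse 18 (GFP-BM CON) was the reverse, with 41.6 in the hippocampus, 398 in the cortex and 345 in the thalamus. Mouse 2 (GFP-BM REPOP) was level, with 277, 358 and 388. Across mice, Pearson's r of log2 Ttr was -0.43 between cortex and hippocampus (11 mice), -0.15 between cortex and thalamus (10) and -0.26 between hippocampus and thalamus (11). These are descriptions over mice of 3 treatment groups.

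Every one of the 10 genes peaked in 1 of 2 hippocampus libraries. WT CON replicate 1 held the highest Ttr, Kl, Folr1, Slc4a5, Igf2, Aqp1 and Otx2, and GFP-BM CON replicate 4 the highest Enpp2, Clic6 and Kcne2. The range from the lowest to the highest of the 34 libraries was 876-fold for Slc4a5, 861-fold for Kcne2, 373-fold for Folr1, 134-fold for Aqp1, 106-fold for Otx2, 70.6-fold for Clic6, 46.2-fold for Kl, 21.6-fold for Enpp2 and 11.8-fold for Igf2. The lowest values of Kcne2 (1 read), Slc4a5 (2 reads), Folr1 (3 reads), Otx2 (6 reads) and Aqp1 (8 reads) rest on few reads, so their fold ranges are imprecise. Enpp2 rested on at least 2526 reads, Igf2 on 547, Ttr on 429, Kl on 121 and Clic6 on 54.

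**Figure D2:**
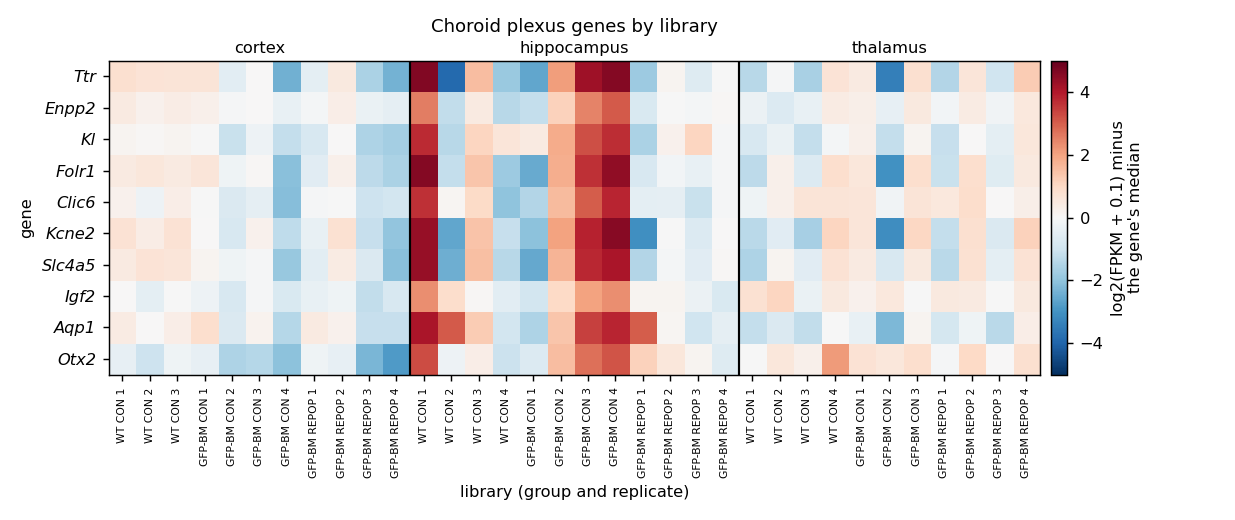
Level of each gene (rows) in each library (columns, ordered by region, group and replicate), as log2(FPKM + 0.1) minus the gene's median over 34 libraries, from blue (below) to red (above). The darkest red columns are WT CON 1 and GFP-BM CON 3 and 4 of the hippocampus, and Aqp1 is red in WT CON 2 and GFP-BM REPOP 1, where Ttr is blue.

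Folr1, Kcne2 and Slc4a5 followed Ttr most closely. With the mean of each region removed, Pearson's r with Ttr over 34 libraries was 0.97 for Kcne2, 0.97 for Folr1 and 0.96 for Slc4a5, and these were the 3 nearest of 15052 genes. Spearman's rho was 0.97, 0.97 and 0.94. Per 100 FPKM of Ttr, the median level of Folr1 was 0.64, 0.60 and 0.74 FPKM in cortex, hippocampus and thalamus. It was 0.42, 0.40 and 0.43 for Kcne2, and 0.22, 0.20 and 0.26 for Slc4a5. The medians of these 3 ratios were thus close between regions, while single libraries ran from 0.38 to 3.84 for Folr1, from 0.045 to 0.78 for Kcne2 and from 0.039 to 1.24 for Slc4a5. In the WT CON hippocampus the Kcne2 level was 22.6, 0.086, 2.94 and 0.41 FPKM in replicates 1 to 4, in the same order as Ttr. The libraries share mice, sequencing and the same scaling, and the points are not independent, so r is given as a description.

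Enpp2 and Kl moved with Ttr over a smaller range. Enpp2 had an r of 0.92 and ranked 8th, and Kl had 0.91 and ranked 11th. The slope in the hippocampus, in log2 level per unit of log2 Ttr, was 1.04 for Kcne2 and 1.09 for Slc4a5, against 0.84 for Folr1, 0.62 for Clic6, 0.56 for Kl, 0.52 for Enpp2, 0.47 for Otx2, 0.41 for Aqp1 and 0.31 for Igf2. In the cortex the slope of Enpp2 was 0.25, and it lay between an FPKM of 70.1 and 128, while Ttr ran from 47.7 to 442. Kl was high for the Ttr level in some hippocampus libraries. It stood at 5.85 FPKM in GFP-BM CON replicate 1, 6.49 in WT CON replicate 4 and 8.91 in GFP-BM REPOP replicate 3, above all cortex values (1.23 to 4.70), where Ttr was 41.6, 70.5 and 161.

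Clic6 (r 0.84, rank 29) and Otx2 (r 0.81, rank 39) kept a level where Ttr was low. Within the thalamus r fell to 0.61 for Clic6 and 0.57 for Otx2. GFP-BM CON thalamus replicate 2, at a Ttr of 23.6 FPKM, still had a Clic6 of 2.97 and an Otx2 of 2.85. The cortex libraries lowest in Ttr were GFP-BM CON replicate 4, at 47.7, and GFP-BM REPOP replicate 4, at 49.8. They had a Clic6 of 0.70 and 1.75 and an Otx2 of 0.39 and 0.18. Otx2 was highest in the thalamus in WT CON replicate 4, at 8.76 FPKM, against 1.82 to 3.93 in the other 10 thalamus libraries.

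Igf2 and Aqp1 were the least tied to Ttr. Igf2 had an r of 0.67 over all libraries, 0.78 within the cortex, 0.77 within the hippocampus and 0.007 within the thalamus, where it lay between 12.0 and 31.8 FPKM. Aqp1 had an r of 0.63 over all libraries, 0.90 in the cortex, 0.97 in the thalamus and 0.54 in the hippocampus. In the hippocampus 2 libraries stood apart. WT CON replicate 2 had 9.93 FPKM (564 reads) at a Ttr of 17.1, and GFP-BM REPOP replicate 1 had 9.57 (478 reads) at a Ttr of 73.0, whereas the other hippocampus libraries with a Ttr under 300 FPKM had 0.31 to 1.18. Both are among the 3 libraries with few hippocampus markers. WT CON replicate 2 also had an Igf2 of 28.0 FPKM. The listed genes of meninges fibroblasts summed to 136 FPKM in WT CON replicate 2 and 84.0 in GFP-BM REPOP replicate 1, against 22.4 to 217 in all hippocampus libraries, and none of them was at 0 in either. The part of that tissue in these levels was not tested.

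**Figure D3:**
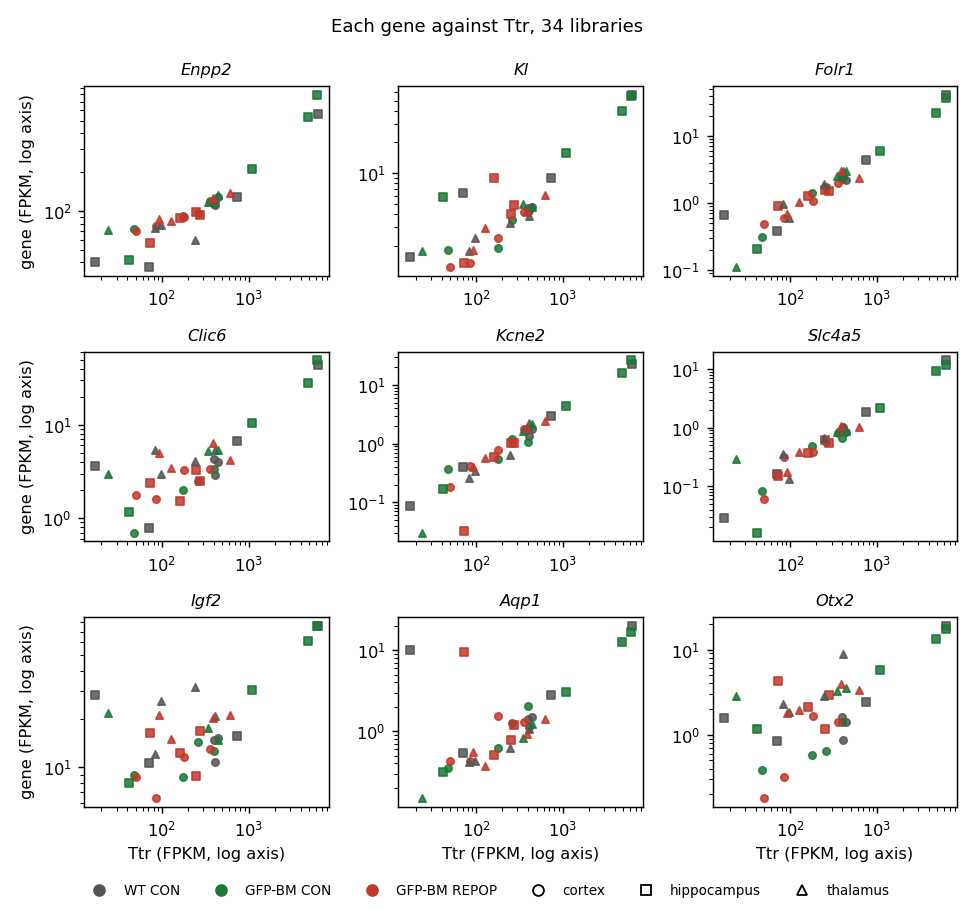
Each of 9 genes (FPKM, log axis) against Ttr (FPKM, log axis) in 34 libraries, with colour for the group and shape for the region. Folr1, Kcne2 and Slc4a5 lie along a line, Enpp2, Clic6, Otx2 and Igf2 flatten at low Ttr, and 2 hippocampus libraries near 10 FPKM stand above the line of Aqp1.

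Over all 45 pairs of the 10 genes, r lay between 0.48 and 0.97, with a median of 0.84, and 28 pairs exceeded 0.8. Of the 9 genes other than Ttr, 7 had an r with Ttr above 0.8, against 0.292% of all 15052 genes. Without the 3 hippocampus libraries highest in Ttr, which narrows the range of Ttr, r was 0.95 for Kcne2, 0.93 for Folr1, 0.93 for Slc4a5, 0.87 for Enpp2, 0.81 for Kl, 0.67 for Clic6, 0.63 for Otx2, 0.35 for Aqp1 and 0.27 for Igf2. When the 3 libraries with few hippocampus markers were left out instead, r was 0.96 for Aqp1, 0.79 for Igf2, 0.87 for Otx2 and 0.89 for Clic6, and 0.91 to 0.99 for the other 5. Over cortex and thalamus alone, Aqp1 had an r of 0.93 and Igf2 of 0.36.

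The 10 genes nearest to Ttr other than the 10 described were Cldn2 (r 0.95), 1500015O10Rik (0.95), Prr32 (0.94), Drc7 (0.93), Rdh5 (0.92), Tmem72 (0.92), Wdr86 (0.91), Steap1 (0.90), Defb11 (0.90) and Slc39a4 (0.89), over 34 libraries. Of these 10, 5 (Cldn2, 1500015O10Rik, Rdh5, Tmem72 and Steap1) are on the list of other choroid plexus genes. Cldn2, a claudin of leaky epithelia, ran from 0.10 to 12.2 FPKM. Slc39a4 is a zinc transporter and ran from 0.12 to 5.11 FPKM. Of the 23 other choroid plexus genes tested, 17 exceeded an r of 0.8 and the median was 0.85. Ependyma and cilia genes, from the cells that line the ventricle, had a median of 0.66 (15 genes, 1 above 0.8), oligodendrocyte genes 0.51 (10), meninges fibroblast genes 0.06 (14) and endothelial genes 0.11 (10).

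Genes of the ventricle wall were high in some of the same libraries. The 15 ependyma and cilia genes summed to 245 FPKM in GFP-BM CON hippocampus replicate 4 and 161 in WT CON replicate 1, the highest of the 12 hippocampus libraries. The other 10 lay between 20.3 and 64.8, among them GFP-BM CON replicate 3, the third highest in Ttr, at 53.5. The summed oligodendrocyte genes were also highest in GFP-BM CON replicate 4, at 2647 FPKM, in a hippocampus range of 463 to 2647. Whether these tissues contributed to the Enpp2 levels was not tested.

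The first question of the design was whether irradiation with transplant, or replacement of the microglia on top of it, went with a change of these genes within a region. Values of log2(FPKM + 0.1) were compared by limma-trend in a fit of 3 groups per region, two-sided, with p adjusted by the Benjamini-Hochberg method over 15053 genes and a threshold of 0.05. No member passed in any of the 9 comparisons (0 of 10 in each). In the cortex the share of all genes that passed was 0.312% for GFP-BM CON against WT CON, 0.764% for GFP-BM REPOP against WT CON and 0.0465% for GFP-BM REPOP against GFP-BM CON. It was 0.0133%, 0.0133% and 0.0266% in the hippocampus and 0.0%, 0.837% and 0.0% in the thalamus. At an unadjusted p under 0.05, 7 of the 90 tests of members passed, and the smallest adjusted p was 0.252. Over the 46 settings run, those without 1 library among them, 0 members were called, and the smallest adjusted p was 0.0574.

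In the cortex the estimates of all 10 genes were below 0 in both transplanted groups. The median log2 difference of the 10 genes was -0.84 for GFP-BM CON and -1.001 for GFP-BM REPOP against WT CON, where the medians of all genes were 0.02 and 0.02. Estimates below 0 made up 44.0% and 44.5% of all genes. Ttr differed by -1.28 (SE 0.71, 95% interval -2.82 to 0.27, adjusted p = 0.426) and by -1.69 (SE 0.71, interval -3.24 to -0.14, adjusted p = 0.318). In the comparison of GFP-BM REPOP with WT CON, 6 of the 10 had an unadjusted p under 0.05, against 14.2% of all genes. Without overlap of the groups, 4 genes were lower in GFP-BM CON (Ttr, Kl, Kcne2 and Slc4a5), against 4.41% of all genes, and 4 in GFP-BM REPOP (Ttr, Kl, Folr1 and Slc4a5), against 4.62%. The genes move together across libraries and both comparisons share the 3 WT CON libraries, so these counts are not independent.

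Kl had the smallest p in the cortex. Its FPKM was 4.70, 4.42 and 4.59 in WT CON, 4.2, 1.88, 3.52 and 1.81 in GFP-BM CON, and 2.38, 4.22, 1.37 and 1.23 in GFP-BM REPOP mice. WT CON lay above both groups by a small margin at the nearest library. GFP-BM REPOP differed from WT CON by -1.12 on the log2 scale (SE 0.39, n = 4 and 3, adjusted p = 0.252). The SD of log2 Ttr was 0.08 in the WT CON cortex, 1.32 in GFP-BM CON and 1.24 in GFP-BM REPOP mice. In the comparison of the transplanted groups with each other, 9 of 10 estimates were below 0, against 57.4% of all genes, with a median of -0.20 and a Ttr difference of -0.42 (SE 0.66, adjusted p = 0.999).

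In the hippocampus the intervals were wide. Ttr differed by 1.97 between GFP-BM CON and WT CON (SE 1.79, interval -1.92 to 5.87, adjusted p = 0.527), by -0.70 between GFP-BM REPOP and WT CON (interval -4.60 to 3.20, adjusted p = 0.902) and by -2.67 from GFP-BM CON to GFP-BM REPOP (interval -6.57 to 1.23, adjusted p = 0.551). The medians of the 10 genes were 1.18, -1.04 and -2.22, beside -0.03, 0.01 and -0.01 over all genes. Estimates above 0 for GFP-BM CON against WT CON numbered 9 of 10, against 46.7% of all genes. All 10 were below 0 for GFP-BM REPOP, against 49.1% of all genes in the comparison with WT CON and 51.2% in that with GFP-BM CON. Without the 3 libraries with few hippocampus markers, the Ttr differences were 0.64, -1.71 and -2.35. They were 1.14, 0.81 and -0.33 without the 3 libraries highest in Ttr, which were chosen by that level. With 1 library left out, the first ran from 0.64, when it was WT CON replicate 2, to 3.54, when it was GFP-BM CON replicate 1. The second ran from -2.03 to 0.81, when it was replicate 2 or replicate 1 of WT CON, and the third from -4.24 to -1.83, when it was replicate 1 or replicate 4 of GFP-BM CON. No member was called in either direction, and at this spread between libraries that does not show equal levels. The smallest adjusted p over all settings was for Kl, GFP-BM REPOP against GFP-BM CON, with all 9 groups in one limma-trend fit (0.0574). In the main fit 1 of 10 members had an unadjusted p under 0.05 in that comparison, against 1746 of 15053 genes.

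Estimates for some of the marker lists of other tissues are given for the same hippocampus comparisons, in which 0 of these markers were called. Between GFP-BM CON and WT CON the median log2 difference was -1.69 for the 10 striatum markers (0 of 10 above 0), 0.84 for the 10 hippocampus markers (10 of 10) and 0.59 for the 10 oligodendrocyte genes (10 of 10). The striatum markers summed to 470, 743, 646 and 65.4 FPKM in the WT CON libraries and to 116 to 159 in GFP-BM CON. For GFP-BM REPOP less GFP-BM CON the medians were 1.1 for striatum (10 of 10 above 0), -1.58 for hippocampus (1 of 10) and -0.25 for oligodendrocyte markers (0 of 10). They were -0.82 for ependyma and cilia (0 of 15), -0.69 for thalamus (0 of 10) and 0.78 for cortex markers (8 of 10). For GFP-BM REPOP less WT CON they were -0.55 for striatum (0 of 10), -0.65 for hippocampus (4 of 10) and 0.34 for oligodendrocyte markers (10 of 10). In that comparison ependyma and cilia stood at -0.61 (0 of 15) and cortex markers at 1.07 (9 of 10). Their part in the differences of the choroid plexus genes was not tested.

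In the thalamus the estimates lay on both sides of 0. Ttr differed by -0.13 (SE 1.04, adjusted p = 0.934) between GFP-BM CON and WT CON, by 0.45 (SE 0.96, adjusted p = 0.748) between GFP-BM REPOP and WT CON, and by 0.58 (SE 1.04, adjusted p = 1) between the transplanted groups. The medians of the 10 genes were 0.01, 0.24 and 0.09, against -0.06, -0.05 and -0.01 over all genes. Without GFP-BM CON thalamus replicate 2, where Ttr was 23.6 FPKM, the first difference became 1.21 and the last -0.76.

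**Figure D4:**
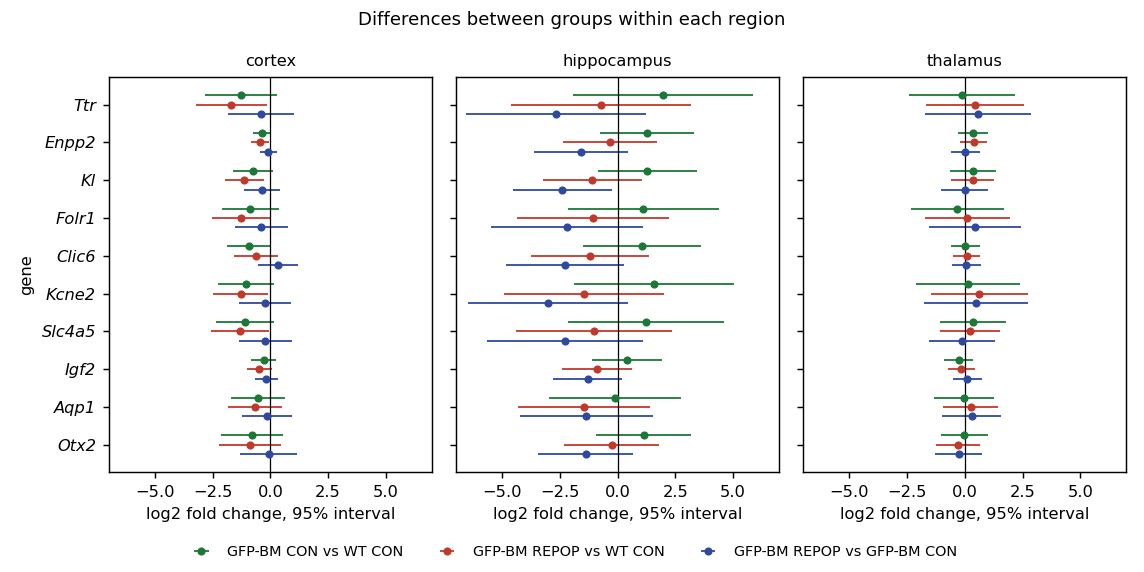
Log2 fold change of each gene between groups in each region, with 95% intervals, from the fit per region. The intervals of the hippocampus are the widest, and all green and red points of the cortex lie below 0.

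Group differences in one region were also tested against those in another, in 1 fit of all libraries with the mouse as a random block. That fit used the same residual variance of a gene for all regions, although the spread between libraries differed by region. No member passed in any of the 9 differences (0 of 10 in each). Over all genes, 0.0% passed for the difference of GFP-BM CON against WT CON between each pair of regions. For GFP-BM REPOP against GFP-BM CON the shares were 0.159% between hippocampus and cortex, 0.0266% between hippocampus and thalamus and 0.0% between thalamus and cortex, and for GFP-BM REPOP against WT CON 0.0332%, 0.0266% and 0.0%. Of the 90 tests of members, 2 had an unadjusted p under 0.05, and the smallest adjusted p was 0.512. Both were for GFP-BM REPOP against GFP-BM CON, 1 of 10 between hippocampus and cortex and 1 of 10 between hippocampus and thalamus. By that rule 1280 and 1145 of 15053 genes passed there. In the remaining differences 0 of 10 members and 34 to 1499 of all genes did. The Ttr estimate that was farthest from 0 was -3.29 (SE 2.06, interval -7.51 to 0.92, adjusted p = 0.724), for the transplanted groups with and without PLX3397, in the hippocampus less the thalamus. It was -2.95 without the libraries with few hippocampus markers and -0.92 without those highest in Ttr.

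The regions themselves were compared in the same fit, averaged over the 3 groups. Between hippocampus and cortex, 4 of 10 genes were called higher in the hippocampus, beside 27.3% of all genes called in that direction and 57.2% called in either. Those called were Otx2, Kl, Aqp1 and Igf2. The median over the 10 genes was 0.99 on the log2 scale, against 0.02 over all genes, and all 10 estimates were above 0, as for 52.6% of all genes. Ttr itself was not called, at 0.83 (SE 0.83, interval -0.87 to 2.53, adjusted p = 0.398), nor between hippocampus and thalamus, at 1.04 (SE 0.83, adjusted p = 0.305). Without the 3 libraries with few hippocampus markers these differences were 1.38 (adjusted p = 0.165) and 1.59 (adjusted p = 0.119). Without the 3 hippocampus libraries highest in Ttr they were -0.47 and -0.25, but those libraries were chosen by their Ttr level, so that a lower value was fixed by the choice. Leaving out 1 library gave 0.31 to 1.34 against the cortex and 0.54 to 1.54 against the thalamus, lowest without WT CON hippocampus replicate 1 and highest without GFP-BM CON hippocampus replicate 1.

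Of the 10 genes, Otx2 differed most from the cortex. It lay between 0.18 and 1.64 FPKM in the cortex with a median of 0.88, between 0.85 and 19.1 in the hippocampus with a median of 2.66, and between 1.82 and 8.76 in the thalamus with a median of 2.85. All 11 thalamus libraries thus lay above all 11 cortex libraries. The share of all genes separated in this way was not counted, and 43.0% of all genes were called between these 2 regions. It was higher in the hippocampus by 1.97 (SE 0.46, adjusted p = 0.000711) and in the thalamus by 1.74 (SE 0.47, adjusted p = 0.00363) than in the cortex. Hippocampus and thalamus differed by 0.23 (interval -0.71 to 1.16, adjusted p = 0.696). Both calls remained in all 34 fits that left out 1 library. The 3 hippocampus libraries highest in Ttr were also those highest in Otx2, so leaving them out had to lower the first, to 1.25 (adjusted p = 0.00865). The first was 2.09 (adjusted p = 0.00121) without those with few hippocampus markers.

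Kl had a median FPKM of 3.52 in the cortex (range 1.23 to 4.70), 7.70 in the hippocampus (1.35 to 56.9) and 3.29 in the thalamus (1.78 to 6.19). The ranges overlapped. It was higher in the hippocampus than in the cortex by 1.60 (SE 0.44, adjusted p = 0.00327) and than in the thalamus by 1.46 (SE 0.44, adjusted p = 0.00735). The 3 hippocampus libraries highest in Ttr were also those highest in Kl, so leaving them out had to lower the differences. They were then 0.90 (adjusted p = 0.04) and 0.77 (adjusted p = 0.0783), and the second was not called. Without the 3 libraries with few hippocampus markers they were 2.10 (adjusted p = 0.000129) and 1.97 (adjusted p = 0.000316).

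Aqp1 had a median of 1.25 FPKM in the cortex (0.35 to 2.04), 2.91 in the hippocampus (0.31 to 20.02) and 0.63 in the thalamus (0.15 to 1.40). It was higher in the hippocampus by 1.51 (SE 0.59, adjusted p = 0.0303) than in the cortex and by 2.08 (SE 0.59, adjusted p = 0.00456) than in the thalamus. The call against the cortex was lost in 7 of 34 fits without 1 library, with an adjusted p of up to 0.0675 (WT CON hippocampus replicate 1 or 2, GFP-BM CON hippocampus replicate 3 or 4 or cortex replicate 4, or GFP-BM REPOP hippocampus replicate 1 or cortex replicate 3), and was also lost without the libraries with few hippocampus markers (1.09, adjusted p = 0.124). They include both in which Aqp1 was high at a low Ttr. The libraries highest in Ttr were also those highest in Aqp1 in the hippocampus, so leaving them out had to lower the differences. They were then 0.64 (adjusted p = 0.327) and 1.22 (adjusted p = 0.066), and neither was called. By voom on the recovered reads they were 1.57 (adjusted p = 0.0808) and 2.08 (adjusted p = 0.0502), and neither passed.

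Igf2 had a median of 11.6 FPKM in the cortex (6.43 to 15.1), 16.6 in the hippocampus (8.02 to 76.1) and 21.0 in the thalamus (12.0 to 31.8). It was higher in the hippocampus by 0.97 (SE 0.30, adjusted p = 0.00854) and in the thalamus by 0.80 (SE 0.31, adjusted p = 0.0402) than in the cortex. The first was not called without the 3 hippocampus libraries highest in Ttr (0.43, adjusted p = 0.128), which were also those highest in Igf2, so that a lower value was fixed. It was 0.98 (adjusted p = 0.0174) without those with few hippocampus markers. The second was lost in 13 of 34 fits without 1 library, with an adjusted p of up to 0.0737. Its test shares a variance with the hippocampus, where the SD of log2 Igf2 was 1.17, against 0.39 in both cortex and thalamus. A fit of cortex and thalamus alone was not run. The libraries were WT CON cortex replicates 2 and 3 and thalamus replicates 1 and 2, GFP-BM CON cortex replicates 2 and 4 and thalamus replicates 1 and 2, and GFP-BM REPOP cortex replicates 3 and 4 and thalamus replicates 1, 2 and 4. In the thalamus 8 of 14 meninges fibroblast genes were also called higher than in the cortex, against 19.7% of all genes. The summed FPKM of the meninges fibroblast genes was 54.8 to 134 in the thalamus and 30.3 to 59.5 in the cortex. Their part in the Igf2 level was not tested.

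Between thalamus and cortex 2 of 10 genes were called (Otx2 and Igf2, both higher in the thalamus), beside 19.7% of all genes in that direction and 43.0% in either, and the median of the 10 was 0.03, against -0.04 over all genes. Between hippocampus and thalamus 2 of 10 were called (Kl and Aqp1, both higher in the hippocampus), beside 24.8% in that direction and 50.3% in either, with a median of 0.82, against 0.01. Both shares of members are near the background or below it. Of the 23 other choroid plexus genes, 9 were called higher in the hippocampus than in the cortex, beside 27.3% of all genes, and 0 lower. In the thalamus 2 were called higher than in the cortex, beside 19.7%. In the hippocampus 2 were called higher than in the thalamus, beside 24.8%, and 1 lower. In the 9 comparisons of groups, 0 of the 23 were called.

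Folr1, Kcne2 and Slc4a5, which followed Ttr most closely, were called in no comparison of regions. Between hippocampus and cortex they differed by 1.00 (SE 0.70), 0.74 (SE 0.74) and 0.81 (SE 0.68), with adjusted p between 0.217 and 0.398. Folr1 was called without GFP-BM CON hippocampus replicate 1, the library with the second lowest Ttr of that region (adjusted p = 0.037 against the cortex and 0.0374 against the thalamus). Clic6 differed from the cortex by 1.05 (adjusted p = 0.0698) and was called without that library or without WT CON hippocampus replicate 4 (adjusted p down to 0.00591). With all libraries, Clic6 was also called at a pseudocount of 1 (adjusted p = 0.0466) and after quantile normalization (0.0153), but not by voom (0.115). The differences from the cortex without the libraries low in hippocampus markers were 1.25 for Folr1, 1.29 for Kcne2, 1.2 for Slc4a5 and 1.03 for Clic6 (adjusted p 0.119 to 0.167).

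**Figure D5:**
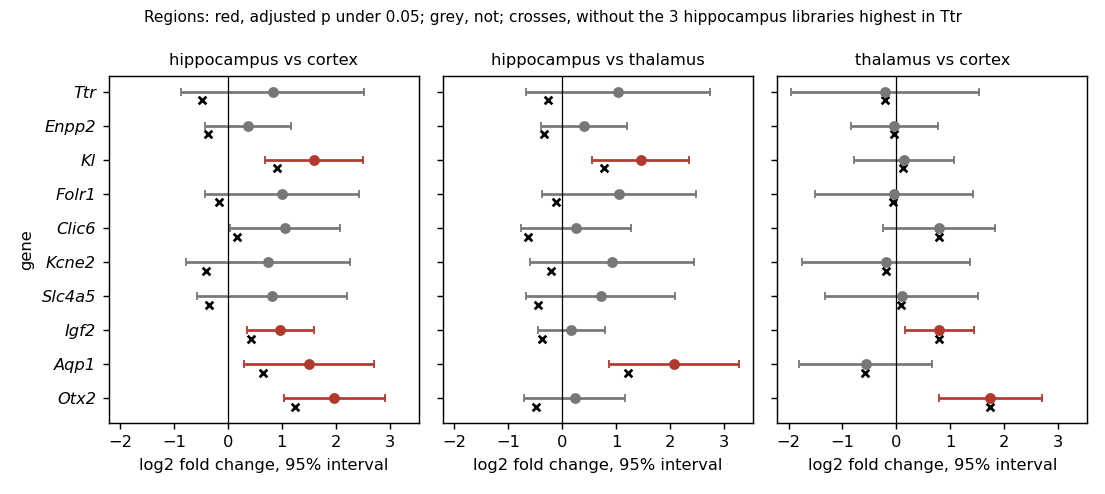
Log2 fold change of each gene between regions with 95% intervals, red where the adjusted p was under 0.05, and crosses for the fit without the 3 hippocampus libraries highest in Ttr. The cross of Otx2 lies at 1.25 for hippocampus against cortex, and the crosses of Ttr lie at -0.47 and -0.25 in the hippocampus comparisons. The libraries left out were highest in both genes in the hippocampus, so lower crosses were fixed by the choice.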

How the data were processed

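RNA-seq of 34 libraries from 12 mice was analysed. Per the labels and the study's methods, the authors sequenced paired reads on NovaSeq and HiSeq instruments, used STAR for alignment and featureCounts of Rsubread for counts by Entrez ID, and computed the deposited FPKM values with limma and edgeR (mm10 in the processing notes). Which library was read on which instrument is not given in the sources used here. Reads were recovered from the smallest step of the FPKM values, and 100.0% of values came out whole (tolerance 0.01 of a read), giving 17085018 to 26010509 reads per library, median 21367227.

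The members, gene lists and comparisons were chosen with earlier results of these data known. Genes with an FPKM of at least 1 in at least 3 libraries (15053 of 16389) were tested on log2(FPKM + 0.1) with limma 3.58.1 in R 4.3.3 (limma-trend, two-sided, Benjamini-Hochberg adjusted p under 0.05), in 1 fit per region for groups and in 1 fit of 9 groups with the mouse as a random block (correlation -0.038) for regions and for differences between regions. A fold change is on that scale and understates the change of low genes. Correlations with Ttr used the same values, less the mean of each region. Members were all described. Fold changes were given for members called and for Ttr, and for Kl, Clic6, Otx2 and the 3 members nearest to Ttr also where not called, chosen after their values were seen. Also named were the 10 other genes most correlated with Ttr. Replicates are separate mice.

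Alternatives were a pseudocount of 1 or 0.01, no filter, median-ratio scaling (factors 0.943 to 1.065), quantile normalization, no trend, all groups in one fit, the replicate number as a block, no mouse block and leaving out each library. Chosen after seeing the data were voom on the recovered reads and leaving out 2 sets of 3 hippocampus libraries. Python 3.11.15, numpy 2.4.6 and pandas 2.3.3 were used, and the read recovery and fits were tested on simulated data. The list symbols Ecrg4 and Mfrp were not in the table. RefSeq tables matched 15947 gene IDs.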

Additional observations from a re-analysis of the deposited data

Results flagged for a closer look

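Among 70 groups of 4 libraries tested for a single value far from the rest by Dixon's criterion, 2 were found, where chance flags about 1 in 20. Slc4a5 in the GFP-BM CON cortex was lowest in replicate 4, at 0.0846 FPKM (9 reads), against 0.50 to 0.65 in the other 3 libraries. Igf2 in the GFP-BM REPOP thalamus was lowest in replicate 3, at 15.1 FPKM, against 20.4 to 21.3 in the other 3. Differences of group effects between regions were tested for each gene, and 0 of 90 passed an adjusted p under 0.05 by limma.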

How the results depend on the processing

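The count of called members stayed at 0 in all 9 comparisons of groups and all 9 differences between regions, under every alternative run, also with voom. Between regions, leaving out the 3 hippocampus libraries highest in Ttr gave 2 called between hippocampus and cortex and 0 between hippocampus and thalamus. Those libraries were also highest in the hippocampus for the members called there, so lower estimates were fixed by the choice. Between hippocampus and thalamus voom gave 1. Between thalamus and cortex, leaving out 1 library gave 1 to 2. The other counts stayed within 1.5 times: between hippocampus and cortex 3 to 6 without 1 library, and between hippocampus and thalamus 2 to 3. Without the mouse as a random block (no replicate block), 4, 2 and 2 members were called, as with it. With the replicate number as a block in the fits per region, 0 were called. The numbers do not mark the same animals, and deviations of same-numbered libraries correlated at -0.104 to 0.242 in the cortex, -0.43 to 0.48 in the hippocampus and -0.348 to 0.133 in the thalamus, so no pairing was used.

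The sign of Ttr differences that were not called turned as follows. Without the 3 libraries highest in Ttr it became 0.81 for GFP-BM REPOP against WT CON in the hippocampus, -0.47 and -0.25 for the hippocampus against cortex and thalamus, 0.092 for the difference of GFP-BM REPOP against GFP-BM CON between hippocampus and cortex, and 0.35 for that of GFP-BM REPOP against WT CON between hippocampus and thalamus. Without the 3 libraries with few hippocampus markers it became -0.023 for the difference of GFP-BM REPOP against WT CON between hippocampus and cortex. The replicate block gave 0.32 for GFP-BM CON against WT CON in the thalamus. Leaving out 1 library gave ranges of -1.03 to 0.038 in the cortex between the transplanted groups and -2.03 to 0.81 for GFP-BM REPOP against WT CON in the hippocampus. In the thalamus they were -0.90 to 1.21 for GFP-BM CON against WT CON, -0.024 to 0.89 for GFP-BM REPOP against WT CON and -0.76 to 1.35 between the transplanted groups. Between thalamus and cortex the range was -0.47 to 0.23. For the differences between regions it was -0.36 to 2.5 for GFP-BM REPOP against WT CON (hippocampus and cortex), -2.47 to 0.35 for the same (hippocampus and thalamus) and -0.29 to 1.83 for GFP-BM REPOP against GFP-BM CON (thalamus and cortex). The cause was not tested. Mean levels moved by less than 1 SD under median-ratio scaling for all 90 group means. The planned edgeR test was not run because the table analysed holds FPKM values, and voom on the recovered reads took its place. With few reads for Kcne2, Slc4a5 and Folr1 in libraries low in Ttr, depth limits their ratios there.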
